A study of Ovis aries with 12 samples.

Results

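The anterior leaflet of the mitral valve was compared between sheep sampled 4 weeks after an experimental heart attack and sheep sampled before one. All 5 libraries labelled 4 weeks post-MI (myocardial infarction) were set against all 3 labelled pre-MI, so 8 of the 12 libraries of the series enter the comparison, with 1 library per animal. The 4 libraries from 8 weeks are in neither arm, and entered the estimate of the spread, the filter on low counts and the mean levels by which genes were classed and ranked. The labels describe adult Dorset sheep under thiopental and isoflurane anaesthesia, in which the chest was opened and marginal branches of the left circumflex coronary (the obtuse second and the third) were tied for good. The infarct this makes lies at the back of the left ventricle and takes in the whole posterior papillary muscle. By echocardiography, 3 of the 5 animals at 4 weeks had blood leaking back across the valve, called ischemic mitral regurgitation (IMR), and 2 had none. The 3 pre-MI animals had none, and no sham operation is given in the labels. The model thus holds the effect of the operation and of the infarct together, and these cannot be told apart.

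Mitral leaflets are thin sheets in which valve interstitial cells keep up layers of collagen, proteoglycan and elastin, covered on both faces by endothelium. The leaflets themselves are not infarcted. A displaced papillary muscle pulls on the chords that tether them, and leaflets under such tension are known to thicken and to rebuild their matrix. Poly-A RNA from whole frozen leaflet was counted here, so a change in the number of cells of a type cannot be told apart from a change in RNA per cell. The deposited counts carry Ensembl sheep gene IDs without gene names, and no table used here pairs them with symbols. Markers of the tissue, of cardiac muscle or of blood cells could therefore not be checked, and the results are given by size, direction and abundance class of change. IDs are printed for 4 genes.

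The 8 libraries held 7768007 to 17766607 counts, with the lowest total in 4-week replicate 5. Between 15321 and 17296 genes had at least 1 count per library. Pre-MI libraries averaged 16293 ± 847 such genes (SD, n = 3) and 4-week libraries 16498 ± 513 (SD, n = 5), a difference within the spread (exact two-sided permutation test, p = 0.661, adjusted p = 0.727 over 11 library measures). Without pre-MI replicate 2, which had the fewest genes, the sign of that difference turned, to 281 fewer genes at 4 weeks.

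No gene passed for 4 weeks against pre-MI. Of 14427 genes tested with edgeR's quasi-likelihood model, 0 (0%) reached an adjusted p under 0.05, the lowest value being 0.498. Before adjustment 812 genes had a p under 0.05, of which 543 were higher at 4 weeks (3.76% of genes tested) and 269 lower (1.86%). Only 160 genes had an unadjusted p under 0.01 and 23 under 0.001. Levels in the 2 arms did not overlap for 400 genes with all 5 libraries at 4 weeks above the 3 pre-MI libraries (2.77%) and for 230 with all 5 below them (1.59%). The limma voom fits, with and without sample quality weights, also passed 0 genes, with 1591 and 830 at an unadjusted p under 0.05. DESeq2 passed 49 genes, 42 of them higher.

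The excess of higher over lower genes depended on how libraries were scaled. Scaling by TMM (trimmed mean of M-values), used throughout, assumes that most genes do not change, and it put the median log2 fold change of all genes at 0.04. Scaling by library totals alone put it at -0.16 and turned the split at an unadjusted p under 0.05 from 543 higher and 269 lower to 212 higher and 484 lower. With RLE (relative log expression) factors the split was 521 higher and 266 lower, and with upper quartile factors 504 and 237. Among these scales only the totals turned it. The 4-week libraries ran from 0.719 to 1.18 in TMM factor and the pre-MI libraries from 0.974 to 1.19. The factors did not differ between arms beyond the spread (exact two-sided permutation test, p = 0.304, adjusted p = 0.417). The unadjusted count was also moved by single libraries. It was 1558 without 4-week replicate 5, 522 without 4-week replicate 2 and 541 without pre-MI replicate 2.

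Most fitted differences were small. The median size of the log2 fold change was 0.33, and 68.1% of genes (9821) had a log2 fold change under 0.5 in size. Fitted levels at 4 weeks were higher by 2-fold or more for 850 genes (5.89%) and lower by 2-fold or more for 719 (4.98%). At 4-fold or more there were 167 higher and 221 lower. Among these 1569 genes of 2-fold or more, 353 of the higher and 157 of the lower had an unadjusted p under 0.05. Most of them thus did not reach that threshold even before adjustment. A test against a change of 2-fold in place of no change (glmTreat) passed 0 genes, with 172 at an unadjusted p under 0.05.

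Intervals say how large a change these libraries leave possible. The 95% interval of the log2 fold change, taken gene by gene without adjustment, lay wholly within 2-fold in either direction for 4514 genes (31.3%) and within 4-fold for 11429 (79.2%). It lay wholly beyond 2-fold for 45 genes, but the test against a 2-fold change passed 0 genes after adjustment. For the majority of genes a change of 2-fold was neither shown nor bounded at this number of animals. Leaving out pre-MI replicate 2, 3 or 4 lowered the number of genes bounded within 2-fold to 3183, 2758 or 2936.

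Most of the large lower differences rested on 1 pre-MI animal. Among the 719 genes lower by 2-fold or more, pre-MI replicate 2 was the highest of the 3 pre-MI libraries for 572 (79.6%), against 70 for replicate 3 and 77 for replicate 4. These genes were selected by a fold change that this library enters, so the share is a description. In the fit without that library, 315 genes were lower by 2-fold or more and 1298 higher, against 719 and 850 with it. The rise in higher genes was not particular to it, at 1297 without replicate 3 and 1228 without replicate 4. Lower genes there rose to 1052 and 980. Each such fit filtered genes anew. Among the 14427 genes of the main fit, 282 were lower and 1190 higher by 2-fold or more without replicate 2. Of the 719 genes, 186 (25.9%) were again lower by 2-fold or more without pre-MI replicate 2, whereas 669 and 652 were so without replicates 3 and 4. Of the 3 pre-MI libraries, replicate 2 also differed most from the others of its arm. Its median absolute log2 difference from the mean of the other pre-MI libraries was 0.499, and 23.1% of genes differed by 2-fold or more, against 0.374 and 16.2% for replicate 3 and 0.340 and 12.7% for replicate 4. The same measure within the 4-week arm ran from 0.391 in replicate 1 to 0.703 in replicate 5, with replicates 5, 2 and 3 above pre-MI replicate 2.

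The large higher differences were also uneven over the 4-week animals. The highest library is 1 of 5 here and 1 of 3 pre-MI, and leaving out 1 of 5 moves a mean less. Neither measure is thus on the same scale in the 2 arms. Of the 850 genes higher by 2-fold or more, 4-week replicate 2 with IMR was the highest library for 350 (41.2%) and replicate 1 without IMR for 207 (24.4%). Replicates 5, 3 and 4 were the highest for 117, 102 and 74. Leaving out replicate 2 kept 620 of the 850 past 2-fold and leaving out replicate 1 kept 694, while 631 were kept without pre-MI replicate 2. Leaving out any 1 of the 8 libraries thus kept at least 620 of the 850 higher genes past 2-fold, and at least 577 of the 719 lower genes except for pre-MI replicate 2.

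**Figure D1:**
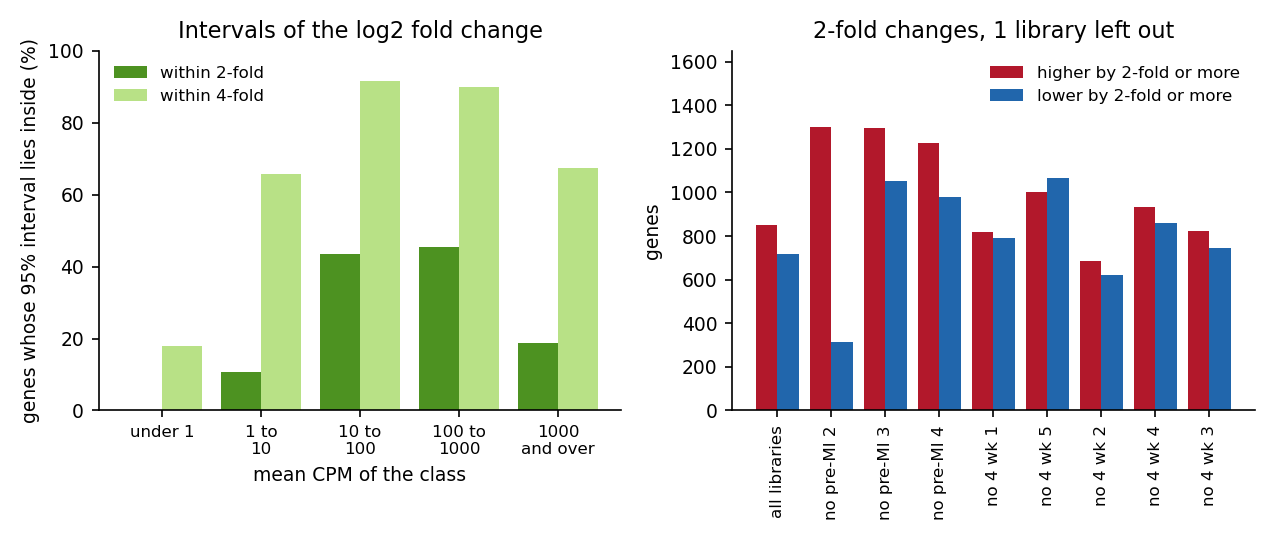
Left, the share of genes in each abundance class (mean over 12 libraries of CPM, a gene's counts scaled to a common library size) whose 95% interval of the log2 fold change lies wholly within 2-fold (dark bars) or 4-fold (light bars) of no change. Right, the number of genes higher (red) or lower (blue) by 2-fold or more at 4 weeks in the fit of all libraries and with each library left out in turn. The blue bar falls from 719 to 315 without pre-MI replicate 2. The red bar rises from 850 to 1298, 1297 and 1228 without pre-MI replicates 2, 3 and 4. Each fit filtered genes anew.

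Changes were then read by abundance. Genes were placed in 5 classes by their mean CPM over all 12 libraries. CPM are not divided by gene length, so a class describes how many reads a gene takes and not its number of molecules. The genes tested comprised 824 under 1 CPM, 4317 at 1 to 10 CPM, 7544 at 10 to 100 CPM, 1635 at 100 to 1000 CPM and 107 at 1000 CPM and over.

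The size of difference was smallest in the middle of the range and larger at both ends. The median size of the log2 fold change was 0.72 under 1 CPM and 0.42 at 1 to 10 CPM. It was 0.28 at 10 to 100 CPM, 0.29 at 100 to 1000 CPM and 0.67 at 1000 CPM and over. Changes of 2-fold or more made up 35.8% of genes under 1 CPM, 16.7% at 1 to 10 CPM, 5.46% at 10 to 100 CPM, 7.22% at 100 to 1000 CPM and 22.4% at 1000 CPM and over, against 10.9% of all genes.

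Precision followed much the same course. The median standard error of the log2 fold change was 0.94 under 1 CPM, 0.55 at 1 to 10 CPM, 0.35 at 10 to 100 CPM, 0.34 at 100 to 1000 CPM and 0.45 at 1000 CPM and over. Genes bounded within 2-fold numbered 0 of 824 under 1 CPM and 464 (10.7%) at 1 to 10 CPM. They numbered 3288 (43.6%) at 10 to 100 CPM, 742 (45.4%) at 100 to 1000 CPM and 20 of 107 (18.7%) in the most abundant class. Counting error adds least in the most abundant class, so its larger standard error than that of the next lower class reflects spread between libraries. Genes under 1 CPM entered the test only where at least 3 libraries had counts enough to pass the filter, so a part of them passed through the arm in which they were high.

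**Figure D2:**
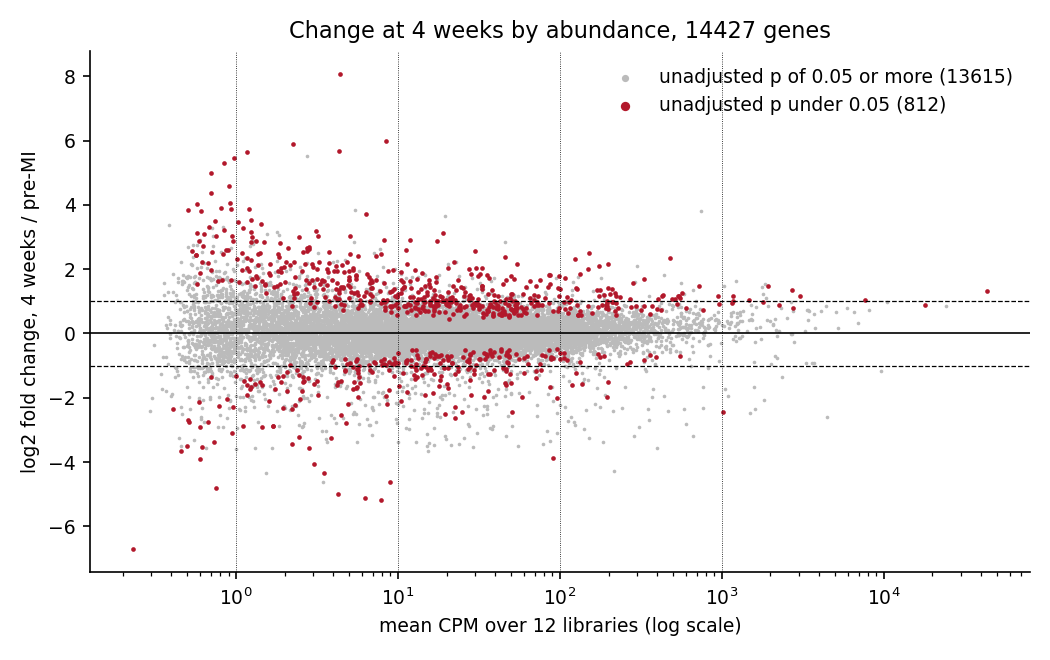
Log2 fold change at 4 weeks over pre-MI (vertical axis) against mean CPM over 12 libraries (horizontal axis, log scale), 1 point per gene, for 14427 genes. The 812 red points have an unadjusted p under 0.05, dashed lines mark 2-fold and dotted lines divide the abundance classes. The cloud is widest at the left and, to the right of 1000 CPM, lies mostly above 0, with 78 of 107 genes higher at 4 weeks.

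With TMM scaling the share of genes with a positive log2 fold change differed between classes. Of the 107 genes at 1000 CPM and over, 78 had a positive log2 fold change (72.9%), as did 64.0% of those at 100 to 1000 CPM, 51.0% at 10 to 100 CPM, 52.1% at 1 to 10 CPM and 55.7% under 1 CPM. At an unadjusted p under 0.05, 13 of the most abundant genes were higher and 1 lower (13.1% of the class, against 5.63% of all genes), with a smallest adjusted p of 0.843 in edgeR. At 100 to 1000 CPM the count was 75 higher and 20 lower. It was 233 and 135 at 10 to 100 CPM, 186 and 95 at 1 to 10 CPM, and 36 and 18 under 1 CPM. Library totals as scale turned these splits in every class but the most abundant, to 24 higher and 58 lower at 100 to 1000 CPM, 71 and 253 at 10 to 100 CPM, 90 and 146 at 1 to 10 CPM, and 23 and 26 under 1 CPM, with 4 and 1 in the most abundant class. Under that scale 608 of the 1635 genes at 100 to 1000 CPM had a positive log2 fold change. The split of that class was also near even without 4-week replicate 1, at 39 and 35, and without pre-MI replicate 2, at 31 and 24. With each of the 8 libraries left out in turn its higher genes ran from 31 to 178, the latter without 4-week replicate 5. Arms that did not overlap were found for 9 of the most abundant genes (8.41% of the class), all higher at 4 weeks. At 100 to 1000 CPM they were found for 35 higher and 30 lower genes. That is 3.98% of the class, near the 4.37% of all genes.

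The median log2 fold change of the most abundant class was 0.40, and 0.36 above the median of all genes. With library totals as scale the class stood at 0.14, which was 0.30 above the median of all genes, with 66 of 107 genes positive in place of 78. A change of scale moves all genes of a library alike. The gap to the other genes could therefore hardly differ between scales and is no separate support. With classes set by the 8-week libraries, which belong to neither arm, the 105 most abundant genes had a median of 0.34. At 100 to 1000 CPM and 10 to 100 CPM the classes set by the 8-week libraries had medians of 0.10 and 0.0045. At 1 to 10 CPM and under 1 CPM they had 0.05 and 0.27. With classes by all 12 libraries, the other medians were 0.14 at 100 to 1000 CPM and 0.01 at 10 to 100 CPM. They were 0.03 at 1 to 10 CPM and 0.15 under 1 CPM, and all 4 were below 0 under library totals. All 10 genes of the most abundant class that were lower by 2-fold or more had their highest pre-MI level in replicate 2, and without that library 0 of the 107 were lower by 2-fold or more, 24 were higher by 2-fold or more, and 93 had a positive log2 fold change. The unadjusted count in the class was then 1 higher and 0 lower. Without 4-week replicate 1 it was 3 higher and 0 lower, and 5 in place of 14 genes were higher by 2-fold or more.

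The higher median of the most abundant class rested on 3 of the 5 animals. Taken library by library, its median log2 ratio to the mean of the pre-MI libraries was 0.87 in 4-week replicate 1 without IMR and 0.66 and 0.37 in replicates 3 and 2 with IMR. It was -0.03 in replicate 5 without IMR and 0.01 in replicate 4 with IMR. Each pre-MI library set against the other pre-MI libraries gave 0.16, -0.02 and -0.06 for replicates 2, 3 and 4. Both 4-week animals near 0 thus lay within the pre-MI range, and each regurgitation group held animals of both kinds. The class of 100 to 1000 CPM was divided in the same way, with 0.24, 0.28 and 0.39 in replicates 1, 2 and 3 and -0.25 and -0.10 in replicates 5 and 4. At 10 to 100 CPM the 5 libraries stayed between -0.05 and 0.09.

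**Figure D3:**
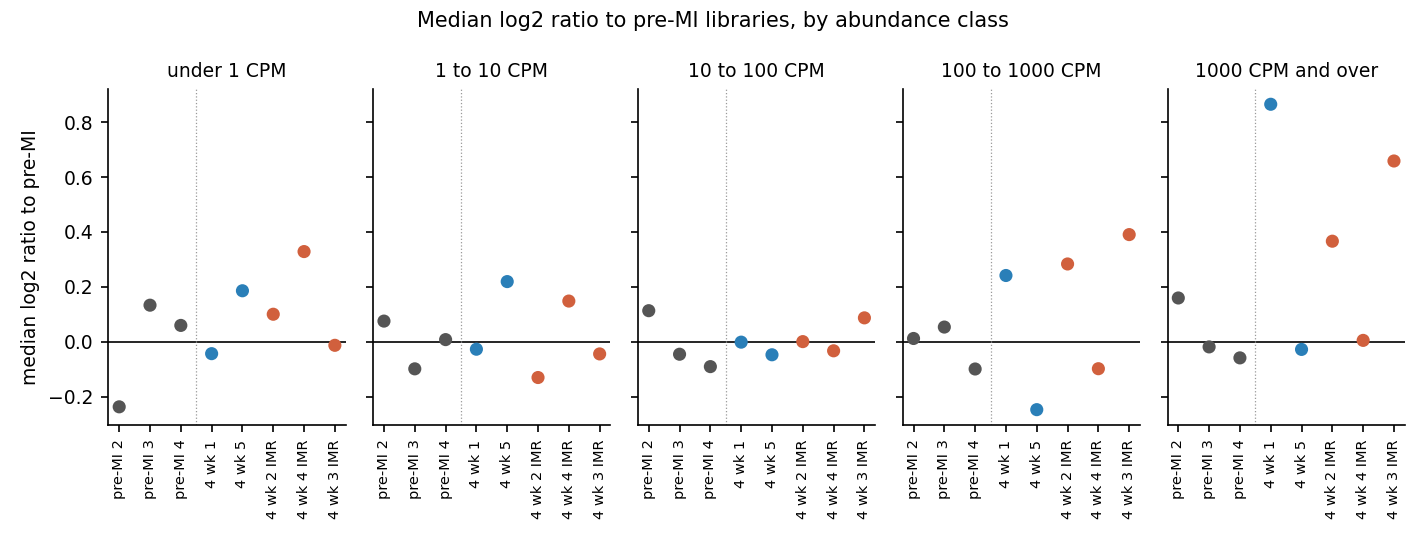
Median log2 ratio to pre-MI over the genes of each abundance class (vertical axis), 1 point per library, in 5 panels from under 1 CPM to 1000 CPM and over. Grey points are pre-MI libraries, each against the other pre-MI libraries, blue points 4-week animals without IMR and orange points 4-week animals with IMR, each against the mean of the 3 pre-MI libraries. In the last panel 4-week replicates 1, 3 and 2 stand at 0.87, 0.66 and 0.37 and the other 4-week libraries near 0.

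Counts were on average more concentrated in a few genes in the 4-week libraries. With all libraries in, the difference did not reach a permutation p under 0.05 before or after adjustment. The 10 most abundant genes of each library took 13.0%, 10.2% and 12.2% of counts in pre-MI replicates 2, 3 and 4. They took 25.2% and 14.2% in 4-week replicates 1 and 5 without IMR, and 15.3%, 13.7% and 16.3% in replicates 2, 4 and 3 with IMR. All 5 libraries at 4 weeks lay above all 3 pre-MI libraries, with replicate 1 far above the others. The means were 16.9% ± 4.71 (SD, n = 5) and 11.8% ± 1.46 (SD, n = 3), a difference of 5.12 percentage points (exact two-sided permutation test, p = 0.0893, adjusted p = 0.393 over 11 measures). The smallest p that 56 splits allow is 0.0179. With these values, no split with 4 weeks higher could give a two-sided p under 0.0893, since the arms were already fully apart. Without 4-week replicate 1 the difference was 3.06 points (exact permutation p = 0.0286, adjusted p = 0.314), the smallest p that 35 arrangements allow. Without the most abundant gene of the series it was 2.92 points (exact permutation p = 0.143, adjusted p = 0.426).

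Shares over wider sets of abundant genes were also higher on average at 4 weeks and overlapped between arms. The 100 most abundant genes of a library took 36.2% ± 5.20 of counts at 4 weeks (SD, n = 5) and 30.1% ± 2.32 pre-MI (SD, n = 3; exact permutation p = 0.107, adjusted p = 0.393). The class at 1000 CPM and over took 35.3% ± 5.22 and 29.3% ± 2.25, with libraries from 31.1% to 44.1% at 4 weeks and from 27.4% to 31.8% pre-MI (exact permutation p = 0.107, adjusted p = 0.393). The class at 10 to 100 CPM, which holds over 50% of the genes tested, took 25.8% ± 3.85 at 4 weeks and 29.2% ± 1.02 pre-MI (exact permutation p = 0.250, adjusted p = 0.417).

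**Figure D4:**
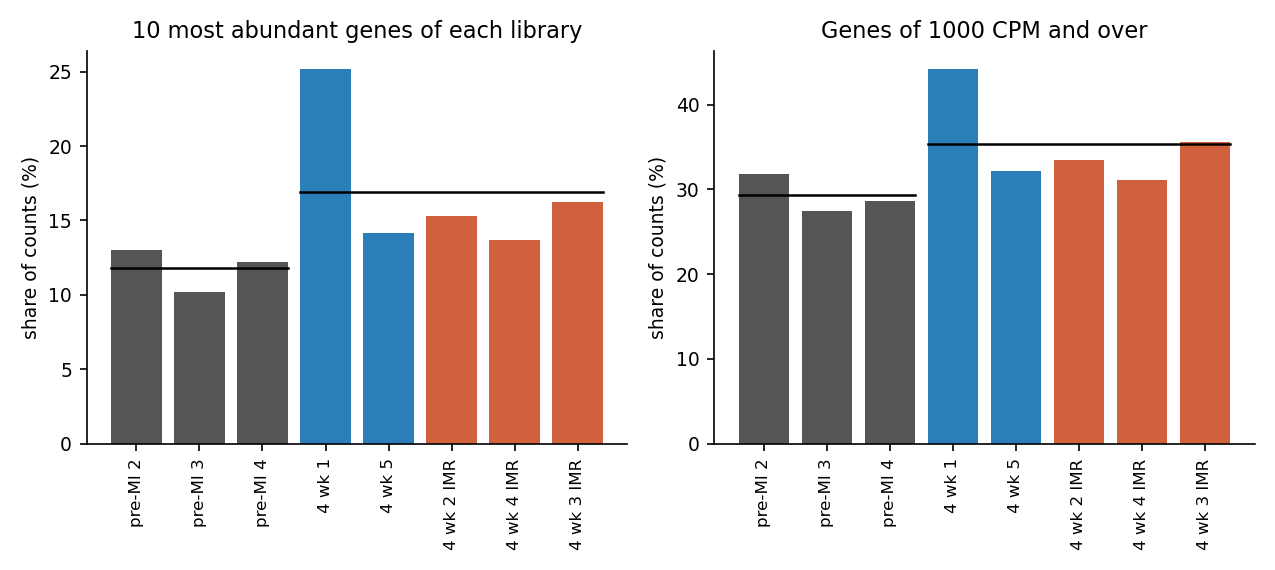
Share of each library's counts (vertical axis, percent) in its 10 most abundant genes (left) and in the genes at 1000 CPM and over (right), with bars in grey for pre-MI, blue for 4 weeks without IMR and orange for 4 weeks with IMR, and a line at each arm's mean. In the left panel the 4-week bars run from 13.7% to 25.2% and the pre-MI bars from 10.2% to 13.0%.

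Among the 10 genes with the most counts over the series, 9 had a higher mean at 4 weeks and none passed the adjustment in edgeR (adjusted p from 0.853 to 0.878). The first had 28641, 22836 and 26673 CPM in pre-MI replicates 2, 3 and 4. At 4 weeks it had 141580 and 26599 CPM in replicates 1 and 5 without IMR and 60088, 31472 and 66762 CPM in replicates 2, 4 and 3 with IMR. Replicates 1, 2 and 3 lay 2-fold or more above every pre-MI library, replicate 4 slightly above them, and replicate 5 within their range. Its log2 fold change was 1.33 (SE 0.54, edgeR adjusted p = 0.853).

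The genes of rank 3, 7 and 10 had arms that did not overlap. The gene of rank 3 had 13220, 11108 and 14931 CPM pre-MI, and 40082, 22387, 17977, 18864 and 20425 CPM in 4-week replicates 1, 5, 2, 4 and 3. Every 4-week library exceeded every pre-MI library, and replicate 1 was the highest by far (log2 fold change 0.87, SE 0.39, edgeR adjusted p = 0.853). The gene of rank 5 was the exception in direction. It had 17092 CPM in pre-MI replicate 2 but 5018 and 1737 CPM in replicates 3 and 4, and 2455 to 4192 CPM over the 5 libraries at 4 weeks, which all lay within the pre-MI range. The fitted log2 difference, -1.16 with an SE of 0.83 (adjusted p = 0.854 in edgeR), follows the 1 high library.

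Genes with the smallest p were not the most abundant ones. Those described below were picked by that p, so the gaps between their arms and their unadjusted intervals are descriptions. ENSOARG00000004016 had 2.10, 2.35 and 1.65 CPM in pre-MI replicates 2, 3 and 4, from 30, 48 and 24 counts. At 4 weeks it had 8.07 and 12.1 CPM without IMR and 8.86, 7.14 and 5.79 CPM with IMR, from 64 to 142 counts. All 5 libraries at 4 weeks lay at more than 2-fold any pre-MI library. The log2 fold change was 2.04 (95% interval 1.26 to 2.81, edgeR adjusted p = 0.498).

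ENSOARG00000012341 differed less, with a small spread within each arm. It had 7.05, 8.81 and 9.41 CPM in pre-MI replicates 2, 3 and 4 and 22.8, 21.0, 18.9, 18.5 and 22.1 CPM in 4-week replicates 1, 5, 2, 4 and 3. The arms lay well apart, and animals with and without IMR were interleaved. The means were 20.6 ± 1.89 (SD, n = 5) and 8.42 ± 1.22 CPM (SD, n = 3), with a log2 fold change of 1.29 (95% interval 0.73 to 1.85, edgeR adjusted p = 0.498).

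ENSOARG00000005117 was the lower gene with the smallest p. It had 222, 630 and 205 CPM in pre-MI replicates 2, 3 and 4, and 85.7, 84.4, 54.3, 98.4 and 121 CPM in 4-week replicates 1, 5, 2, 4 and 3. All 4-week libraries lay below all pre-MI libraries, of which replicate 3 was far above the others. The log2 fold change was -1.99 (95% interval -2.80 to -1.17, edgeR adjusted p = 0.498) and -1.26 without pre-MI replicate 3. ENSOARG00000020909 had 19.1, 15.3 and 13.5 CPM pre-MI and 3.70, 6.59, 2.52, 5.73 and 7.06 CPM in the same order of 4-week libraries. Its arms were apart by nearly 2-fold at their closest, and the log2 fold change was -1.64 (95% interval -2.39 to -0.88, edgeR adjusted p = 0.498). Unlike most genes fitted as lower by 2-fold, both stayed lower by more than 2-fold without pre-MI replicate 2, at -2.23 and -1.49. Both were picked for a small p, which favours genes high in every pre-MI library, so this is a description.

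DESeq2 passed all 4 of these genes, with adjusted p from 3.62e-04 to 0.00993. Over the 19 other alternatives the adjusted p ran from 0.162 to 0.992, with no change of sign. These alternatives refit the counts by which the genes were picked. Of the 49 genes passed by DESeq2, 47 were among the 14427 tested in edgeR. Of these, 29 lay among the 4317 genes at 1 to 10 CPM and 12 among the 7544 at 10 to 100 CPM. There were 4 among 824 under 1 CPM, 2 among 1635 at 100 to 1000 CPM and 0 among 107 at 1000 CPM and over. With so few genes in that last class, a count of 0 says little.

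**Figure D5:**
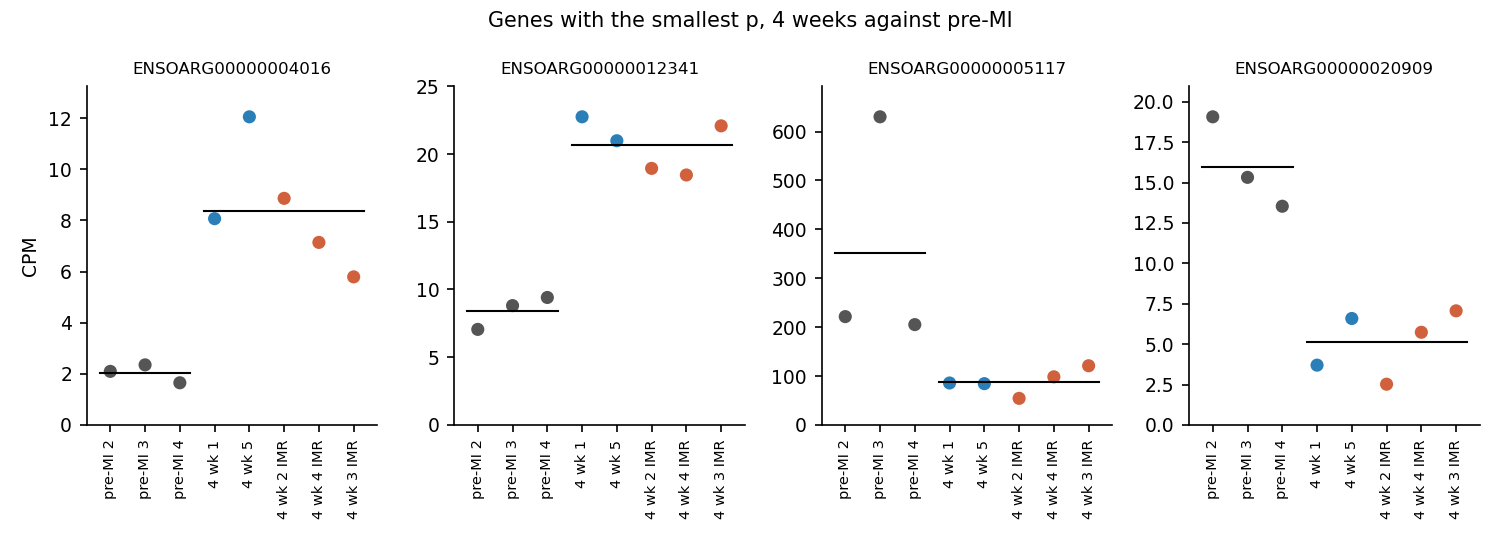
CPM (vertical axis) in each of the 8 libraries for the 2 higher and the 2 lower genes with the smallest p, with pre-MI in grey, 4 weeks without IMR in blue, 4 weeks with IMR in orange and a line at each arm's mean. In all 4 panels every 4-week library lies on the same side of every pre-MI library.

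Genes with counts in every library of 1 arm and in none of the other were few and rested on few counts. Of 25197 gene IDs, 17457 had a count in at least 1 library of both arms and 5516 had none in the 8 libraries. Another 1599 had counts only at 4 weeks and 625 only pre-MI, where 4 weeks has more libraries in which a rare read can fall. Counts in all 5 libraries at 4 weeks and in none pre-MI were found for 9 genes, with 8 to 78 counts summed over the libraries, and none of the 9 passed the filter for testing. The 2 most abundant of these, chosen after their values were seen, had 6 to 16 and 2 to 37 counts in each 4-week library. With 3 counts over the pre-MI libraries as the limit that a count of 0 allows, their mean levels of 0.783 and 1.24 CPM at 4 weeks were at least 12.9-fold and 20.4-fold higher. Counts in all 3 pre-MI libraries and none at 4 weeks were found for 7 genes. Only 1 of the 7 passed the filter for testing, with an unadjusted p under 0.05 in edgeR. It was selected by the same split, so that p is a description. The largest of the 7 had 11 to 18 counts per pre-MI library, a mean of 0.899 CPM, and was at least 17.8-fold lower at 4 weeks. Such limits cover counting error only.

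The spread within arms was wide beside the difference between them. A pair of pre-MI libraries differed by a median absolute log2 CPM of 0.459 on average (3 pairs, 0.326 to 0.544), and a pair of 4-week libraries by 0.633 (10 pairs, 0.345 to 0.955). A pair with 1 library from each arm differed by 0.587 (15 pairs, 0.337 to 0.824), which lies between the other values. The median SD of log2 CPM was 0.388 pre-MI (n = 3) and 0.584 at 4 weeks (n = 5), though such a median rises with the number of libraries. In the most abundant class the pairs averaged 0.473 within pre-MI, 0.700 within 4 weeks and 0.751 between arms. Pairs between arms there differed more than pairs within either arm, by less than the range of the 4-week pairs (0.280 to 1.05).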

How the data were processed

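The deposited values were raw read counts per Ensembl gene ID in 12 libraries of poly-A RNA, 1 column per animal. The submitters' processing notes name Bowtie2 2.2.3, TopHat2 2.0.12 and HTSeq 0.6.1. The genome build, the annotation and the strand setting are not given in the sources used here, so overlapping and antisense genes may share reads. The design text counts 13 animals, and its groups add to 12. None of the 25197 IDs matched a symbol, so gene lists and cell type markers were not analysed here.

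Groups were taken from the time given in the sample characteristics, and count columns were matched to samples by title. In R 4.3.3 with edgeR 4.0.16, counts were scaled by TMM and filtered by filterByExpr over 3 time groups, which left 14427 genes holding 99.9% of counts. A robust quasi-likelihood model of all 12 libraries (9 residual degrees of freedom) tested 4 weeks minus pre-MI two-sidedly, with Benjamini-Hochberg adjustment over all genes tested and a threshold of 0.05. Log2 fold changes use a prior count of 0.125 and log2 CPM of single libraries a prior count of 2. The 95% intervals come from the moderated standard error. Differences in 11 library measures were tested by exact two-sided permutation of the 3 and 5 libraries. Alternatives used limma 3.58.1 (voom), DESeq2 1.42.0, other scalings and filters, a replicate block, and each library left out in turn. The scripts' tests were checked on simulated data. No pair of libraries agreed within sampling noise.

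The genes named are the 2 higher and the 2 lower with the smallest p, and the 10 genes of highest mean CPM are described by rank. The comparison, the abundance classes and this rule were chosen with earlier results of these data known. Replicate numbers shared across the arms did not pair the samples.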

Additional observations from a re-analysis of the deposited data

Results flagged for a closer look

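In 3 of 30 comparisons among 5 libraries, 1 library stood apart from the other 4 by more than Dixon's 95% critical value. Chance gives about 1.5. The comparisons are measures and genes taken on the same libraries, not separate groups. All 3 concern 4-week replicate 1, without regurgitation. There the top 10 genes held 25.2% of all counts, where the rest of the group ran from 13.7% to 16.3% (gap over range 0.775). The gene of rank 2 had 66692 CPM there, against 19808 to 30477 CPM in the others (0.772). The gene of rank 3 had 40082 CPM, against 17977 to 22387 CPM (0.801). The 3 values share the same counts and are not independent.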

How the results depend on the processing

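No gene passed in 20 of 21 alternatives, which include each of the 8 libraries left out in turn (smallest adjusted p from 0.242 to 0.992 over these 8), and DESeq2 passed 49 of 20290 genes. The cause of that difference was not tested. The number of genes differing by 2-fold or more, 1569, became 5119 with no filter and 701 when a mean of 5 CPM was required, where more or fewer low genes are tested, and 4892 in DESeq2, which tests more genes. It ran from 1309 to 2349 with a library left out. The median log2 fold change of the most abundant class, 0.40, stayed between 0.32 and 0.52 with a library left out. Library totals as scale turned the other class medians to -0.0495 under 1 CPM, -0.15 at 1 to 10 CPM, -0.18 at 10 to 100 CPM and -0.10 at 100 to 1000 CPM, and turned the 2-fold counts to 545 higher and 922 lower. With a library left out those medians ran from -0.00572 to 0.21, from -0.0547 to 0.14, from -0.0138 to 0.10 and from 0.07 to 0.20. The lowest values at under 1 CPM and at 1 to 10 CPM came without 4-week replicate 5, and that at 10 to 100 CPM without pre-MI replicate 4. The difference in genes with a count ran from -281 to 494, and that in the share of counts under 1 CPM from -0.00566 to 0.00373 percentage points, positive without pre-MI replicate 4 and without 4-week replicate 1 or 3. The ratio of the median SD at 4 weeks to that pre-MI, 1.50, ran from 1.31 to 2.53, highest without pre-MI replicate 2, and was 1.38 from pairwise differences, an alternative added after seeing the data.

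Replicate numbers were tested as a pairing although the labels do not say that they pair animals. Same-numbered samples had correlations of deviations of -0.241, -0.153 and -0.0336, and 0 of the 3 correlated best with its own number. With the replicate block 0 genes passed, 1240 had p under 0.05 before adjustment, 619 of them higher and 621 lower, and 964 were higher and 1326 lower by 2-fold or more. The fit with 5 groups of time and regurgitation gave 679 genes at an unadjusted p under 0.05, and a fit of the 8 libraries alone gave 777, with 0 passing in both. The voom fit with quality weights gave 902 higher and 689 lower genes at an unadjusted p under 0.05, and a mean CPM of at least 5 gave 391 and 176. With 3 and 5 animals the median 95% interval reached 0.90 to either side on the log2 scale. Thinning all libraries to 7768007 counts left the share of the 10 most abundant genes 5.10 points higher at 4 weeks.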

Other observations

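The 4 libraries from 8 weeks belong to neither arm. Their mean level was 3.81 CPM for ENSOARG00000004016, 13.5 CPM for ENSOARG00000012341, 214 CPM for ENSOARG00000005117 and 12.2 CPM for ENSOARG00000020909. All 4 means lay between the pre-MI and the 4-week mean of the same gene. These genes were picked for a large difference between those arms, which favours such a place, and the differences from 8 weeks were not tested here.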
